A study of Mus musculus with 12 samples.

Results

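Neurotrophins and the ligands of the GDNF family are secreted growth factors on which sensory neurons of the dorsal root ganglion (DRG) depend for survival, growth and identity. Neurotrophins bind Trk receptor kinases and the shared receptor p75NTR, whereas GDNF family ligands bind a membrane-anchored GFRα co-receptor that then recruits the kinase RET. Classes of DRG neurons are commonly told apart by these receptors, since TrkC marks proprioceptive neurons, TrkB a class of touch receptors, and RET with GFRα2 the nonpeptidergic nociceptors. The group described here comprises 8 genes taken by symbol from the 49315 genes counted: the receptor kinases Ntrk2 (TrkB), Ntrk3 (TrkC) and Ret, the p75NTR gene Ngfr, the co-receptors Gfra1, Gfra2 and Gfra3, and Bdnf, the ligand of TrkB.

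Bulk RNA sequencing had been performed on DRG of 12 mice aged 10 months, with 8 ganglia per mouse and 1 library per mouse. Of these, 6 carried Postn-Cre(+) with Nf2 flox/flox (Nf2 mice) and 6 carried Fak1 flox/flox in addition (DKO mice), each with 3 animals labelled male and 3 labelled female. Both genotypes therefore carried the Periostin-driven Cre and the floxed Nf2 alleles, which delete Nf2 in Schwann cells and their precursors, and only DKO mice also carried floxed Fak, the gene annotated as Ptk2. No mouse with intact Nf2 was part of the comparison.

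The libraries held 21129191 to 41250329 counts. Ptk2 measured 65.8 to 75.5 CPM (a gene's counts scaled to a common library total) in Nf2 and 46.5 to 76.0 CPM in DKO mice. Its log2 fold change was -0.15 ± 0.10 (SE, edgeR adjusted p 0.529), so whole-gene counts did not separate the genotypes by the targeted gene. Mouse 702, labelled male, had 496 CPM of Xist and 0.525 CPM of Ddx3y, as the libraries labelled female did. Mice 649 (Nf2) and 887 (DKO) had the highest mitochondrial shares of their genotypes, 4.45% and 5.60%, against 1.99% to 3.15% in the other 10 mice. The neuronal markers were present in every library, their 12 genes summing to 12371 to 16211 CPM in Nf2 and 13691 to 14942 CPM in DKO mice, and none of the 12 differed between genotypes past an edgeR adjusted p of 0.05. Fewer cells of a type and less RNA per cell cannot be told apart in such whole-ganglion values.

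A count per gene pools transcripts that encode different receptors, which is why the points where annotated isoforms part are shown. In GENCODE M21 on GRCm38, 2 transcripts of Ntrk2 share their first 1393 coding bases and then encode either the full kinase receptor of 821 residues or a truncated receptor of 476 residues without the kinase. Likewise, Ntrk3 transcripts share 1585 coding bases before encoding a receptor of 825 or of 612 residues, and Ret transcripts share 3190 before encoding a long (1115 residues) or a short (1073 residues) tail. In the lines that follow, lower case gives the last 30 coding bases that the 2 transcripts compared share. Capitals give the bases of the named transcript after the point where these 2 part. Bases are read 5′ to 3′ on the coding strand, and other annotated transcripts were not compared. The shared bases lie at chr13:58878233-58878262 for Ntrk2 (plus strand), chr7:78356027-78356056 for Ntrk3 (minus strand) and chr6:118155288-118155317 for Ret (minus strand).
Ntrk2, full kinase: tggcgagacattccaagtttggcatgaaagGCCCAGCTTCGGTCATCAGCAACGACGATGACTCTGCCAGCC
Ntrk2, truncated: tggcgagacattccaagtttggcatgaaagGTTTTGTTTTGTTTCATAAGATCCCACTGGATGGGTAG
Ntrk3, full kinase: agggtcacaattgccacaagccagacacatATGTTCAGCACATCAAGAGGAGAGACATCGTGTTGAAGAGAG
Ntrk3, truncated: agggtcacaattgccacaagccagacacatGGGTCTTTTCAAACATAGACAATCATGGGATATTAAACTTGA
Ret, long tail: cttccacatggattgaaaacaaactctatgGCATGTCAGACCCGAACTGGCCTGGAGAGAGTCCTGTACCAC
Ret, short tail: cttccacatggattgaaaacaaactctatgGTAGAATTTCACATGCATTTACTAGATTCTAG
For the truncated Ntrk2 and the short-tailed Ret the capitals run to the stop codon, after 38 and 32 bases. The levels reported for Ntrk2, Ntrk3 and Ret are sums over such transcripts, and the share of each form is not resolved by counts per gene.

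All 8 genes were expressed in every mouse, with 327 reads (Bdnf) to 22440 reads (Ngfr) per gene and mouse, and all 8 passed the filter on low counts. Levels of different genes were compared as CPM per kilobase of annotated exon. On this scale Ngfr had the highest level, 135 ± 21.1 CPM per kilobase (mean ± SD, n = 12), followed by Ret at 76.9 ± 10.9. The co-receptors came next, with Gfra2 at 34.8 ± 2.62, Gfra1 at 25.8 ± 5.18 and Gfra3 at 13.9 ± 2.54 CPM per kilobase. The Trk kinase genes had lower levels, 12.2 ± 1.63 for Ntrk2 and 8.72 ± 1.28 for Ntrk3, and the ligand Bdnf had the lowest, 3.03 ± 0.577 CPM per kilobase.

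The ranges over the 12 mice did not overlap between Ngfr and Ret, between Ret and Gfra2, or between Ntrk3 and Bdnf. Neighbours within the middle of the order overlapped, and Gfra3 exceeded Ntrk2 in 6 of 12 mice only. This order depended on the length used, because Ntrk2 and Ntrk3 are annotated with 19292 and 30170 exon bases but with 2661 and 2923 coding bases. Per kilobase of coding sequence, Ngfr, Ret and Bdnf kept ranks 1, 2 and 8, whereas Ntrk3 and Ntrk2 moved from ranks 7 and 6 to ranks 4 and 5, above Gfra2 and Gfra3. Nf2 and DKO mice lay intermixed for most genes in the plot of levels per length.

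**Figure D1:**
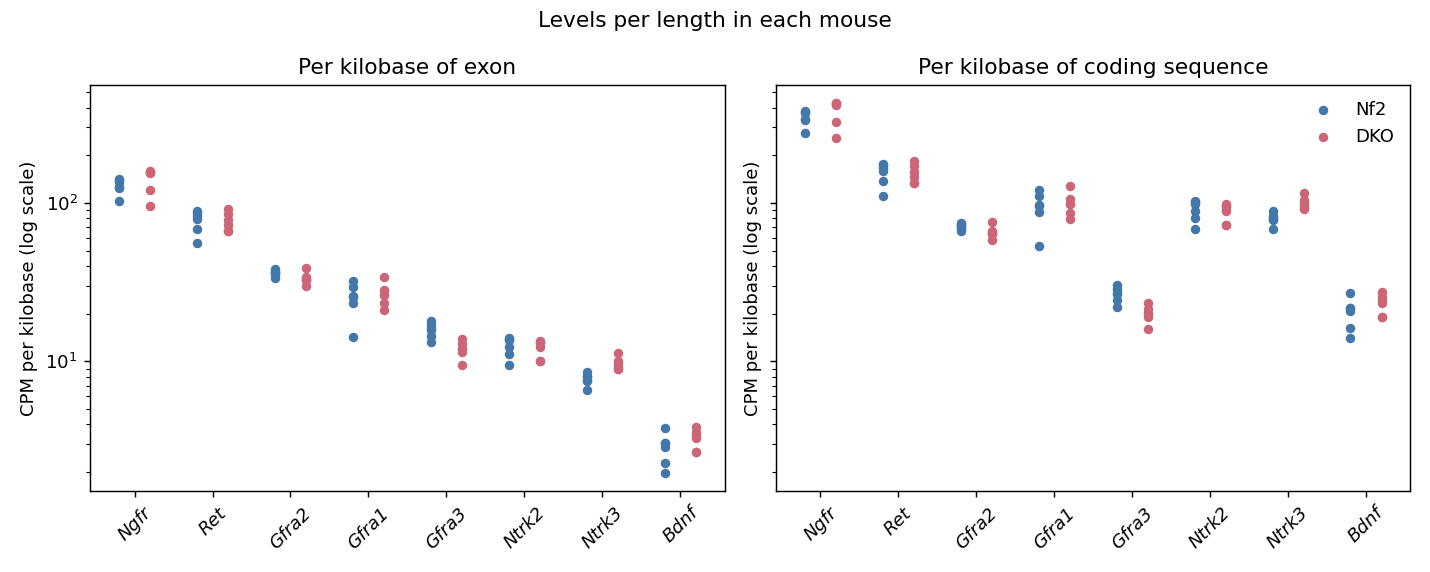
CPM per kilobase of annotated exon (left) and of coding sequence (right) on a log axis for the 8 genes, 1 point per mouse (blue Nf2, red DKO, n = 6 each). Ngfr and Ret lead on both scales and Bdnf has the lowest mean on both, while Ntrk2 and Ntrk3 stand higher relative to the co-receptors per coding length.

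The comparison of DKO with Nf2 mice addressed how gene expression in whole ganglia differed when Fak was targeted in addition to Nf2 in Schwann cells and their precursors. None of the 8 genes passed an edgeR adjusted p of 0.05 (0 of 8), where 172 of the 18295 genes tested did (0.94%). At an unadjusted p under 0.05, 3 of the 8 passed (Ntrk3, Gfra3 and Gfra2), against 14.9% of all tested genes. The genes nearest the threshold were Ntrk3, which had a 1.24-fold level in DKO mice (95% confidence interval 1.11 to 1.39), and Gfra3, which had a 0.746-fold level (0.647 to 0.860). The median log2 fold change over the 8 genes was 0.02, with 4 above and 4 below 0, and over all tested genes it was 0.005.

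Ntrk2 (chromosome 13, 58806569 to 59133970, plus strand) encodes TrkB, the receptor kinase for BDNF and neurotrophin-4. Ntrk2 stood at 215, 272, 268, 262, 183 and 237 CPM in Nf2 mice 649, 702, 884, 918, 1048 and 1049. In DKO mice 885, 886, 887, 914, 915 and 917 it stood at 254, 194, 194, 260.5, 252 and 236 CPM, and values by mouse follow these orders for the other genes too. The genotypes overlapped over nearly their whole range, and both held low mice (1048, 886 and 887) beside others well above them. The means were 239 ± 35.1 and 232 ± 30.3 CPM (SD, n = 6), a log2 fold change of -0.07 ± 0.11 (SE, edgeR adjusted p 0.819). The 95% confidence interval of the fold, 0.810 to 1.12, left changes of that size in either direction unresolved.

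Ntrk3 (chromosome 7, 78175959 to 78738012, minus strand) encodes TrkC, the receptor kinase for neurotrophin-3. Levels of Ntrk3 in the Nf2 mice, in the same order, were 199, 242, 259, 231, 238 and 228 CPM. Those of the DKO mice, in the order given for Ntrk2, were 296, 339, 269, 304, 269 and 283 CPM. The lowest DKO mouse lay above the highest Nf2 mouse, so the genotypes did not overlap, which held for 1.95% of all tested genes. The means were 233 ± 19.8 in Nf2 and 293 ± 26.4 CPM in DKO mice (SD, n = 6). The log2 fold change of 0.31 ± 0.07 (SE) had an unadjusted p of 0.000815 and an edgeR adjusted p of 0.0654, short of the threshold.

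This call depended on the test. With a neuron marker level as a covariate (3.62% of tested genes called), Ntrk3 had an adjusted p of 0.0260, with limma voom and quality weights (2.85% called) 0.0348, and with a filter of at least 1 CPM in 6 mice (1.15% called) 0.0452. DESeq2 (4.62% called) gave 0.00300, but on simulated data it made far more false calls than its threshold allows, so its calls carry less weight. Those counts were simulated with dispersions estimated by edgeR and with larger fold changes than that of Ntrk3. With a skeletal muscle or a central nervous system marker level as covariate, the adjusted p was 0.179 or 0.118 at log2 fold changes of 0.30 and 0.32. In each of the 12 fits without 1 mouse the log2 fold change stayed between 0.27 and 0.34, and the adjusted p between 0.0563 and 0.127. It was 0.37 in females alone and 0.25 in males alone (0.27 without mouse 702).

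Ngfr (chromosome 11, 95568818 to 95587735, minus strand) encodes p75NTR, which binds all neurotrophins and is made by sensory neurons and by immature and injured Schwann cells. The Nf2 libraries gave Ngfr levels of 355, 483, 434, 429, 488 and 469.8 CPM. The DKO libraries gave 539, 415, 331, 544, 544 and 534 CPM. Of the DKO mice, 4 formed a tight group above every Nf2 mouse, and the remaining pair, 886 and 887, lay below most of them. The means were 443 ± 49.9 and 484 ± 90.3 CPM (SD, n = 6), and the log2 fold change was 0.11 ± 0.12 (SE, edgeR adjusted p 0.725). Mice 649 and 887, with the high mitochondrial shares, were the lowest of their genotypes.

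Ret (chromosome 6, 118151745 to 118197718, minus strand) encodes the receptor kinase shared by the GDNF family ligands. Ret measured 375, 587, 597, 560.0, 463 and 539 CPM in the 6 Nf2 mice. The 6 DKO mice measured 576, 450.0, 450.0, 492, 531 and 618 CPM. The genotypes spanned much the same range, and their means were 520.2 ± 85.6 and 519 ± 68.5 CPM (SD, n = 6). The log2 fold change of -0.02 ± 0.12 (SE, edgeR adjusted p 0.952) had a 95% confidence interval of 0.829- to 1.17-fold.

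**Figure D2:**
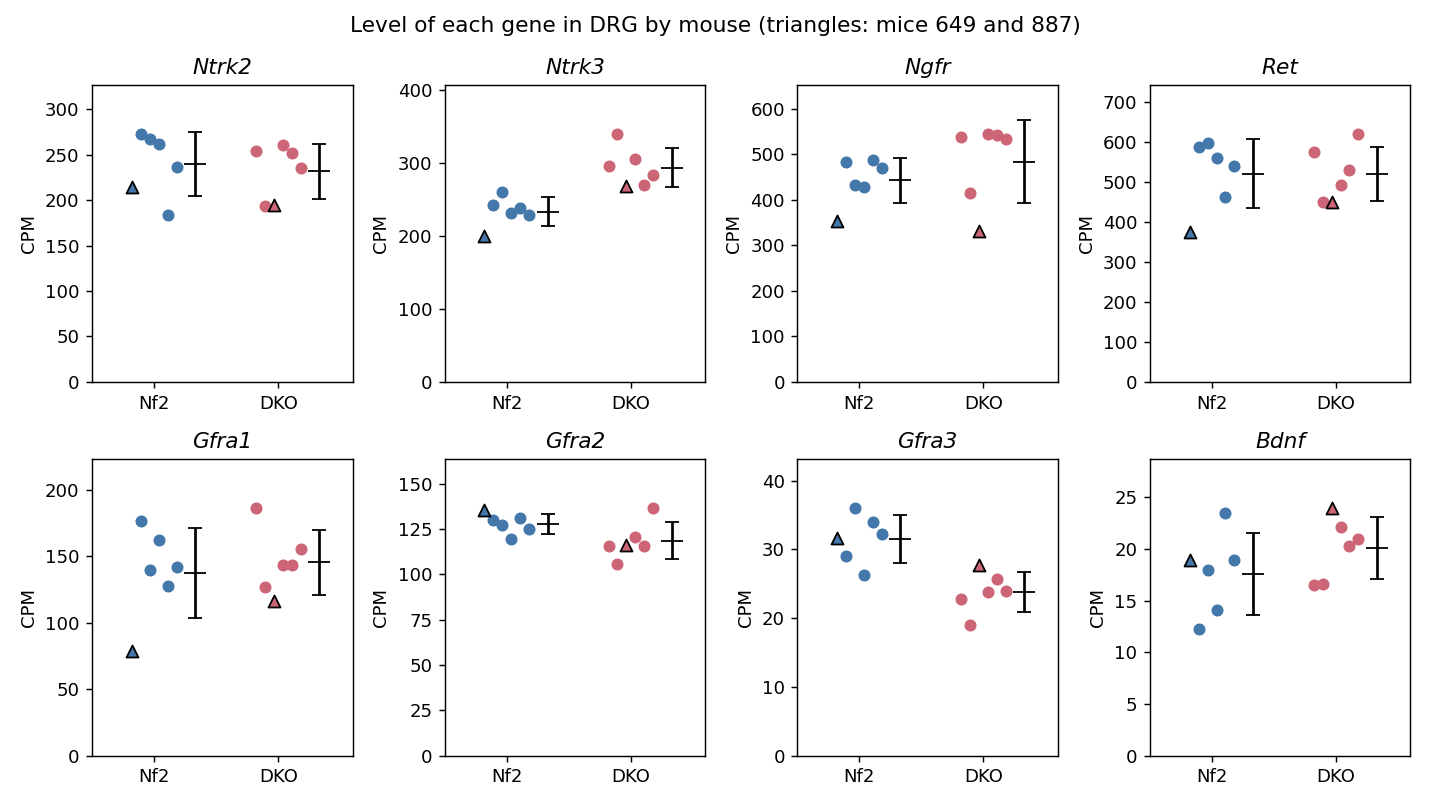
CPM of the 8 genes in each mouse (vertical axes from 0, blue Nf2, red DKO, n = 6 each), with the mean and SD of each genotype at its right and mice 649 and 887 as triangles. All DKO points lie above all Nf2 points for Ntrk3, and the points overlap for the other 7 genes.

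The co-receptors differed in how they stood between the genotypes. Gfra1 (chromosome 19, 58235604 to 58455909, minus strand), the co-receptor for GDNF, was measured at 78.4, 176, 139.9, 162, 128 and 141 CPM in the Nf2 mice. Its levels in the DKO mice were 186, 127, 116, 144, 143 and 155 CPM. It was the most variable of the co-receptors, and mice 649 and 887 were again the lowest of their genotypes. The means were 138 ± 33.8 and 145 ± 24.3 CPM (SD, n = 6), a log2 fold change of 0.06 ± 0.16 (SE, edgeR adjusted p 0.909). Without mouse 649 the log2 fold change was -0.06, and without mice 649 and 887, an exclusion chosen after the data had been seen, it was -0.02.

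Gfra2 (chromosome 14, 70890120 to 70979838, plus strand) is the co-receptor for neurturin. The Nf2 mice had 135, 129.7, 127, 119, 131 and 125 CPM. The DKO mice had 116, 106, 116, 121, 116 and 137 CPM. In 5 of 6 DKO mice the level was below the Nf2 mean, whereas mouse 917 had the highest level of all 12. The means were 128 ± 5.51 and 118 ± 10.2 CPM (SD, n = 6), and the log2 fold change of -0.13 ± 0.06 (SE) did not pass (edgeR adjusted p 0.331).

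Gfra3 (chromosome 18, 34689898 to 34720387, minus strand) is the co-receptor for artemin and marks a subset of peptidergic nociceptors. Levels of Gfra3 in the Nf2 mice, in the same order, were 31.7, 29.0, 36.0, 26.3, 34.0 and 32.3 CPM. Those of the DKO mice, in the order given for Ntrk2, were 22.7, 18.9, 27.8, 23.7, 25.6 and 24.0 CPM. All 6 DKO mice lay below the Nf2 mean, and the ranges met only where DKO mouse 887 exceeded Nf2 mouse 918. The means were 31.5 ± 3.47 in Nf2 and 23.8 ± 2.96 CPM in DKO mice (SD, n = 6). The log2 fold change of -0.42 ± 0.10 (SE) had an unadjusted p of 0.000614 and an edgeR adjusted p of 0.0564.

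As with Ntrk3, the call for Gfra3 changed with the fit while its direction did not. Without mouse 887 (1.17% of tested genes called) the log2 fold change was -0.49 and the adjusted p 0.0275, and without mice 649 and 887 (1.71% called) they were -0.48 and 0.0272. In the other 11 fits without 1 mouse the adjusted p was 0.0642 to 0.128. The adjusted p was 0.0239 with the neuron marker covariate, 0.0134 with limma voom and 0.00331 with DESeq2, with the same limit on the latter, and it was 0.153 with the skeletal muscle and 0.0871 with the central nervous system covariate. The log2 fold change was -0.41 in females alone, -0.44 in males alone and -0.52 in males without mouse 702. As a share of the summed CPM of the 3 co-receptors, Gfra3 made up 8.54% to 12.9% in Nf2 and 7.01% to 10.7% in DKO mice.

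Bdnf (chromosome 2, 109674700 to 109727007, plus strand), the ligand of the group, is made by a subset of DRG neurons. The Nf2 libraries gave Bdnf levels of 18.9, 12.3, 17.9, 14.1, 23.5 and 18.9 CPM. The DKO libraries gave 16.5, 16.6, 23.9, 22.1, 20.3 and 20.9 CPM. Levels in both genotypes spread widely and overlapped, with means of 17.6 ± 3.97 and 20.1 ± 2.99 CPM (SD, n = 6). The log2 fold change of 0.17 ± 0.14 (SE) did not pass (edgeR adjusted p 0.631). An antisense gene shares 896 exon bases with Bdnf and had 35 reads in all 12 mice together, against 6111 for Bdnf. The antisense gene that shares 416 exon bases with Gfra1 had 1 read.

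**Figure D3:**
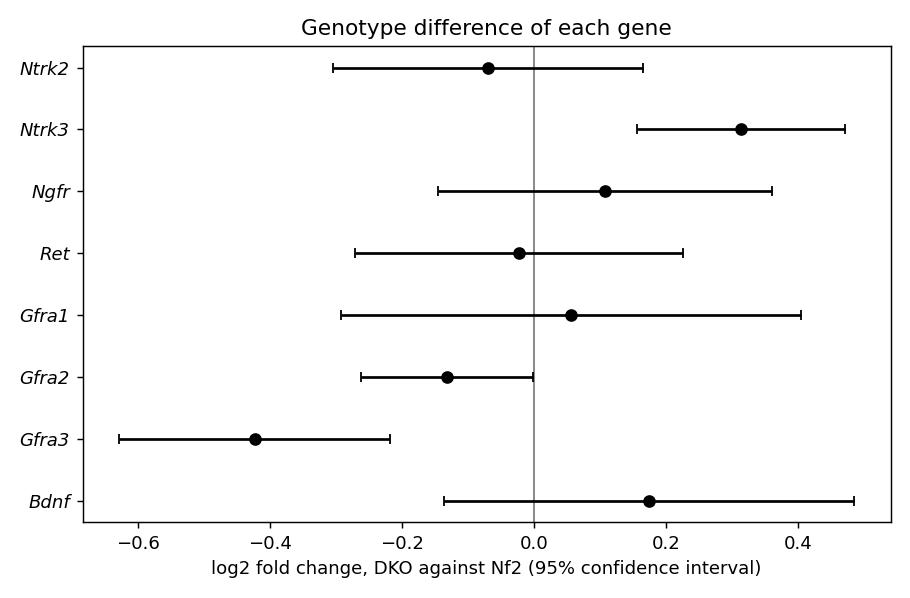
Log2 fold change of each gene in DKO against Nf2 mice with its 95% confidence interval from the edgeR model (n = 6 mice per genotype). The intervals of Ntrk3, Gfra3 and, narrowly, Gfra2 lie to one side of 0 before adjustment for the number of genes tested, and those of the other 5 genes include 0.

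Markers of other cells moved alongside in places. The skeletal muscle markers (8 of 8 present) summed to 12.0 to 847 CPM in Nf2 and 16.9 to 277 CPM in DKO mice. Of these 8 markers 0 passed the threshold. All 8 had fold changes below 1 in DKO mice, at a median log2 fold change of -2.18. An unadjusted p under 0.05 was reached by 7 of the 8, against 14.9% of all tested genes. The meningeal and perineurial markers (6 of 6 present) summed to 327 to 527 CPM in Nf2 and 432 to 1817 CPM in DKO mice, with the highest value in mouse 886, in which Ntrk3 was highest and Gfra3 lowest. All 6 had fitted log2 fold changes above 0, at a median of 0.81, and 0 passed the threshold. Of these 6, 4 had an unadjusted p under 0.05, against 14.9% of all tested genes. The macrophage markers (7 of 7 present) summed to 156 to 234 CPM in Nf2 and 133 to 173 CPM in DKO mice. Of these 7, 1 passed the threshold (C1qb), against 0.94% of all tested genes. The central nervous system markers (10 of 10 present) summed to 101 to 280 and 125 to 483 CPM. Of the 7 macrophage markers, 4 had an unadjusted p under 0.05, against 14.9% of all tested genes. The fitted log2 fold changes of all 7 were below 0 (median -0.33). Those of all 9 tested central nervous system markers were above 0 (median 0.57). Only 1 of the 9, Gfap (log2 fold change 1.22), had an unadjusted p under 0.05, a share not above that of all tested genes. None of these markers was at 0 in all mice, and apart from the covariates for muscle and central nervous system given above, the part of these tissues in the values of Ntrk3 and Gfra3 was not tested. Markers of Schwann cells, in which the alleles are deleted, summed to 10578 to 13600 CPM in Nf2 and 9839 to 13910 CPM in DKO mice, with 0 of 8 past the threshold.

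The remaining genes of the pathway were examined through 6 lists of 71 genes, of which 67 were tested. Of these, 1 fell and 0 rose past the threshold, beside 0.94% of all tested genes, and the median log2 fold change was 0.001. An unadjusted p under 0.05 was reached by 7 of the 67, against 14.9% of all tested genes. For 2 of the 67 the genotypes did not overlap in CPM, against 1.95% of all tested genes. The gene that fell was Dusp6, a phosphatase that inactivates ERK and is itself induced by ERK signaling downstream of receptor kinases. Dusp6 measured 86.1, 70.9, 57.9, 77.8, 60.5 and 63.3 CPM in the 6 Nf2 mice. The 6 DKO mice measured 48.8, 44.3, 52.7, 39.6, 53.5 and 44.1 CPM. The genotypes did not overlap, which held for 1.95% of all tested genes. The log2 fold change of Dusp6 was -0.58 ± 0.11 (SE), with an adjusted p of 0.0286 by edgeR.

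The call for Dusp6 was narrow. It was lost without any 1 of mice 702, 918, 885, 886, 914 and 917 (adjusted p 0.0584 to 0.0751, log2 fold changes of -0.59 to -0.53) and with the central nervous system covariate (-0.49, adjusted p 0.0759). The other 9 ERK-regulated genes did not pass. Of these 9, 1 had an unadjusted p under 0.05, against 14.9% of all tested genes. It was Spry2, which encodes an inhibitor of receptor kinase signaling. Spry2 had 28.02 ± 2.03 and 24.3 ± 3.78 CPM in Nf2 and DKO mice (log2 fold change -0.23, edgeR adjusted p 0.325), and the value for Spry1, of the same family, was -0.21 on that scale (adjusted p 0.410). The most abundant of the 9 were Etv1 at 92.9 ± 16.0 and 96.5 ± 5.76 CPM and Vgf at 86.5 ± 22.1 and 97.0 ± 30.4 CPM in Nf2 and DKO mice (SD, n = 6). The median log2 fold change of the 10 genes was -0.03, with 6 below and 4 above 0.

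Of the other ligands, 0 of the 5 tested passed in edgeR, and 1 (Ntf3) had an unadjusted p under 0.05, against 14.9% of all tested genes. These transcripts were scarce in the ganglia. Gdnf had 3.40 ± 0.883 CPM in Nf2 and 2.24 ± 1.42 CPM in DKO mice (log2 fold change -0.62, edgeR adjusted p 0.399). Ntf3, which encodes neurotrophin-3, the ligand of TrkC, had 0.367 ± 0.0859 and 0.603 ± 0.179 CPM (0.69, edgeR adjusted p 0.213), from 158 reads in all mice. Nrtn, the neurturin gene, had 1.15 ± 0.446 and 1.27 ± 0.409 CPM (0.12, 0.885). Gdf15, which encodes a stress-induced ligand, had 1.41 ± 0.502 and 0.848 ± 0.422 CPM (-0.78, 0.394). Artn, Pspn and Ntf5 had 55, 103 and 31 reads in all mice together and were removed by the filter, so that differences in these ligands were not detectable at this depth.

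Of the other receptors and co-receptors, 0 of the 8 tested passed in edgeR. An unadjusted p under 0.05 was reached by 2 of them (Ncam1 and Sorcs2), against 14.9% of all tested genes. Ncam1, which encodes an adhesion molecule that can bind GDNF with GFRα1, came nearest the threshold (log2 fold change -0.34 ± 0.08, SE, edgeR adjusted p 0.0738). It had 236 ± 18.9 CPM in Nf2 and 189 ± 20.96 CPM in DKO mice (SD, n = 6). The genotypes narrowly failed to overlap, the Nf2 mice having 216 to 264 and the DKO mice 169 to 215 CPM. Such separation held for 1.95% of all tested genes. The sortilin family receptor Sorcs2 had 53.5 ± 8.60 and 41.4 ± 10.0 CPM (-0.39, edgeR adjusted p 0.225), and Sort1, the sortilin gene, 159 ± 29.5 and 154 ± 27.5 CPM (-0.06, 0.871). The persephin co-receptor gene Gfra4 had 11.3 ± 1.83 and 11.1 ± 0.630 CPM (-0.04, 0.890), and Gfral, the receptor of GDF15, had 25 reads in all mice and was not tested.

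None of the 22 receptor adaptors passed in edgeR (0 of 22, median log2 fold change 0.002), and 1 had an unadjusted p under 0.05, against 14.9% of all tested genes. The most abundant were Maged1, which binds p75NTR, at 415 ± 35.4 and 406 ± 17.7 CPM, and Kidins220, a scaffold of Trk receptors, at 333 ± 49.1 and 368 ± 44.7 CPM. With the neuron marker covariate (3.62% of all tested genes called) 4 of the 67 pathway genes passed, namely Dusp6, Ncam1 and the adaptors Cbl and Dok6. In the main edgeR fit, without a covariate, Cbl and Dok6 did not pass (log2 fold changes of 0.28 and 0.43, adjusted p 0.220 and 0.711). Cbl had 96.4 ± 16.7 and 118 ± 9.44 CPM, and Dok6 4.74 ± 2.75 and 6.50 ± 3.15 CPM, in Nf2 and DKO mice (SD, n = 6).

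Genes that mark or specify sensory neuron classes were also examined. None of the 8 transcription factors passed in edgeR (0 of 8, 0 at an unadjusted p under 0.05, median log2 fold change 0.05), with Pou4f1, a general sensory neuron factor, at 175 ± 25.3 and 165 ± 15.6 CPM and Maf, a factor of low-threshold touch receptors, at 129 ± 18.2 and 140.1 ± 17.1 CPM. None of the 14 class markers passed either (0 of 14, median -0.0001), and 1 had an unadjusted p under 0.05, against 14.9% of all tested genes. Calca, the CGRP gene of peptidergic neurons, had 722 ± 114 and 738 ± 97.8 CPM, and P2rx3, the ATP-gated channel gene of nonpeptidergic neurons, had 167 ± 38.7 and 172 ± 21.2 CPM (SD, n = 6).

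**Figure D4:**
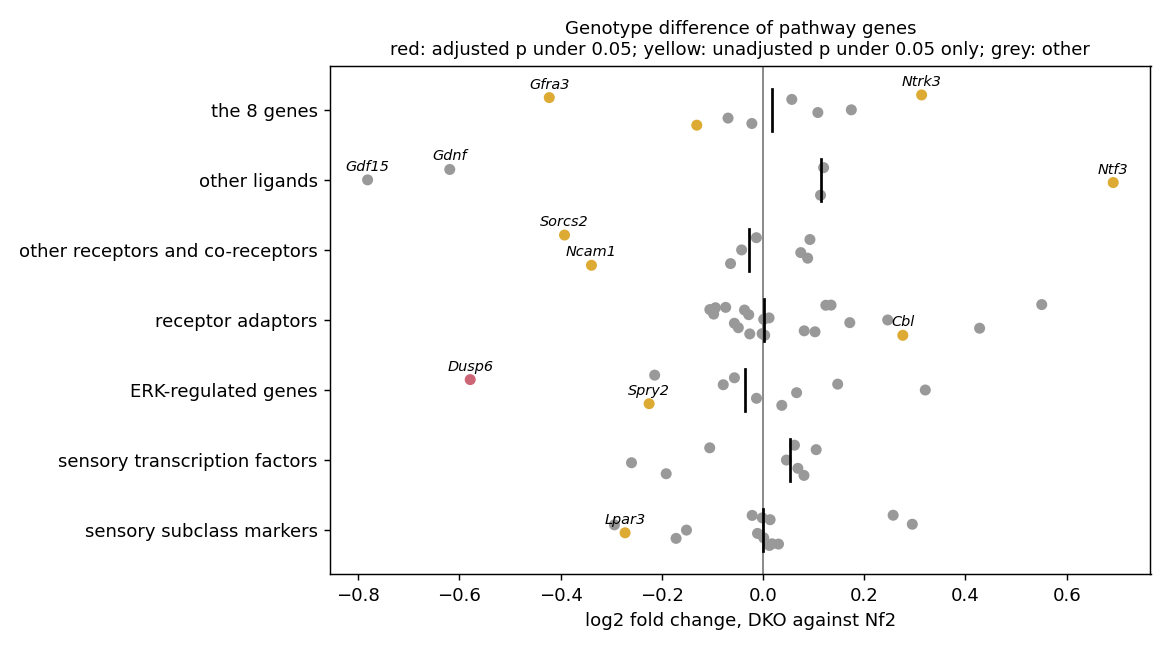
Log2 fold change in DKO against Nf2 mice of each tested gene of the 8 described here and of 6 pathway lists (n = 6 mice per genotype), with black bars at the list medians. Dusp6 (red) is the only gene with an edgeR adjusted p under 0.05, at -0.58, and yellow points, Ntrk3 and Gfra3 among them, have an unadjusted p under 0.05.

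The comparison by labelled sex, with genotype as a covariate, addressed whether these genes differed between males and females. None of the 8 passed (0 of 8), where 3 of the tested genes did (0.0164%), and 2 points of the design limit it, the label of mouse 702 and 3 mice per genotype and sex. Gfra2 and Ntrk2 had the smallest p-values, unadjusted 0.0842 and 0.0948 (edgeR adjusted p 1.00), and none of the 8 had an unadjusted p under 0.05. Ntrk2 had 252 ± 31.9 and 249 ± 12.6 CPM in Nf2 and DKO males against 227 ± 40.2 and 214 ± 34.5 CPM in Nf2 and DKO females (SD, n = 3), a log2 difference of 0.18 ± 0.10 (SE, male against female). Without mouse 702 it was 0.16.

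Nor did the difference between genotypes depend on labelled sex past the threshold for any of the 8 genes (0 of 8, and 0 at an unadjusted p under 0.05, with 0.0109% of tested genes called). Ngfr came nearest, with 462 ± 30.5 CPM in Nf2 and 428 ± 104 CPM in DKO females against 424 ± 64.6 and 541 ± 5.76 CPM in Nf2 and DKO males (SD, n = 3). The interaction was 0.41 ± 0.22 (SE) on the log2 scale, with an unadjusted p of 0.0815 and an edgeR adjusted p of 0.920. Without mouse 702 it was 0.52, with an unadjusted p of 0.0340 and an adjusted p of 0.772. DKO females included mouse 887, the lowest in Ngfr.

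Of the 28 pairs among the 8 genes, 2 passed adjustment by Pearson r and 0 by Spearman rho. Correlations of log2(CPM + 4) over the 12 mice were given p-values from 100000 permutations, and all points of a pair share the library and its total. Ret and Gfra1, kinase and co-receptor of GDNF, varied most closely, with a Pearson r of 0.88 (permutation p 0.00025, adjusted 0.00700) and a Spearman rho of 0.75 (permutation p 0.00705, adjusted 0.0987). Within genotypes r was 0.92 in Nf2 and 0.83 in DKO mice (exact permutation p 0.0111 and 0.0472, adjusted 0.233 and 0.354). Without mice 649 and 886 r was 0.75 over the other 10. Among Nf2 mice alone the relation rested on 649 and 1048, without which r was 0.22 over 4 mice. Among DKO mice without 917 and 886 it was 0.95 over 4 mice. The r of Ret was 0.10 with Gfra2 and -0.03 with Gfra3 (adjusted permutation p 0.928 and 0.946). Within genotypes, Ret and Gfra2 had opposite signs, r being -0.68 in Nf2 and 0.73 in DKO mice (exact permutation p 0.144 and 0.0819, adjusted 0.471 and 0.417). Both signs turned without the 2 mice of each genotype farthest from the median of Ret (0.56 and -0.31 over 4 mice).

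The other pair that passed by Pearson r was Ntrk3 and Gfra3. Its values are given within each genotype, because the genotypes formed separate groups in Ntrk3 and a pooled r would include the difference between them. Among DKO mice r was -0.95 and rho -0.94 (n = 6, exact permutation p 0.00694 and 0.0167), and without mice 886 and 887 r was -0.81. Among Nf2 mice r was 0.26 and rho 0.37 (n = 6, exact permutation p 0.638 and 0.497). Over the 56 such within-genotype relations none passed adjustment, the adjusted p of the DKO relation being 0.233 for r and 0.467 for rho. The DKO mice with more Ntrk3 thus had less Gfra3 in these libraries, to a degree that did not hold up against the number of relations computed.

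**Figure D5:**
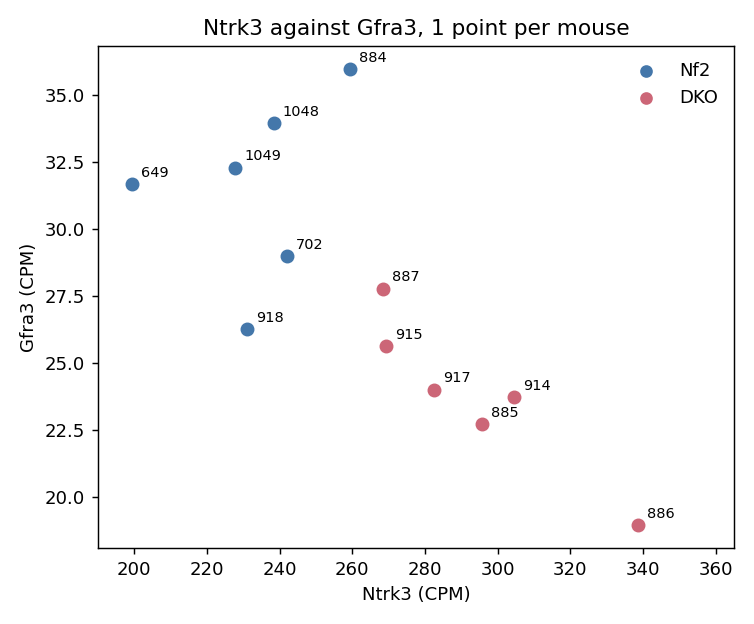
Gfra3 against Ntrk3 in CPM, 1 point per mouse with its number (blue Nf2, red DKO, n = 6 each). DKO mice lie right of 268 CPM of Ntrk3 and run from mouse 887 (269 and 27.8 CPM) down to mouse 886 (339 and 18.9 CPM), while the Nf2 mice show no such order.

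For each of the 8 genes, the 3 genes with the most similar pattern over the 12 mice were sought among 12474 tested genes with a mean of at least 5 CPM, as a description by Pearson r of log2(CPM + 4). Lrrn1 (r 0.96), Vamp1 (0.95) and Fry (0.94) were most like Ntrk3, and these held within genotypes at 0.79 to 0.97 in Nf2 and 0.88 to 0.92 in DKO mice. Dap (0.93), Atf5 (0.89) and Mmd (0.89) were most like Gfra3, with 0.37 to 0.58 within Nf2 and 0.88 to 0.98 within DKO mice. Ret was most like Ogdh (0.98), Dhx29 (0.95) and Nomo1 (0.95), and Gfra1 most like Cpt1a (0.95), Exoc3 (0.94) and Magi3 (0.94). No gene of the group was among the 3 most similar genes of another.

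The other genes had partners of similar strength. Ngfr was most like Fam160a2 (0.93), Atp10d (0.93) and Evi5l (0.92), and Tceanc2 and Trim56 (both 0.90) were among the 3 most like Ntrk2. Bdnf was most like Zfr2 (0.91), Hdhd5 (0.90) and Mcf2l (0.90). Gfra2 had the weakest partners, Iqcc (0.88), Adgrb1 (0.83) and Usp21 (0.82), and its correlation with Adgrb1 was 0.15 within Nf2 and 0.94 within DKO mice. All these values share the libraries and the total that scales them, and they were picked as the highest of 12474.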

How the data were processed

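Per the labels and the study's methods, poly(A) libraries of flash-frozen DRG were trimmed with Trimmomatic 0.36, aligned to GRCm38 with STAR 2.5.2b and counted with featureCounts of Subread 1.5.2. The annotation release, strand setting and treatment of reads with several matches are not given in the sources used here. The authors deposited whole-number read counts of 49315 genes in 12 mice, without normalization. Genes were taken by symbol, and positions and lengths from GENCODE M21, which held 99.3% of the gene identifiers.

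The members and lists were chosen with earlier results of these data known. Genes passing filterByExpr (18295) were fitted with edgeR 4.0.16 (R 4.3.3, TMM scaling, quasi-likelihood F test, Benjamini-Hochberg adjustment over all tested genes, threshold 0.05), after tests on simulated data, in which DESeq2 made far more false calls than its threshold allows and the other tools slightly more. The simulated counts used dispersions estimated by edgeR and larger fold changes than those of the 8 genes. Comparisons were DKO against Nf2, male against female with genotype as covariate, and their interaction. Alternatives used DESeq2 1.42.0, limma 3.58.1 voom with quality weights, other scaling and filters, covariates of sex and of marker lists, subsets of mice and each mouse left out. Males without mouse 702, and the exclusion of mice 649 and 887, were added after seeing the data. Named were all 8 genes, other family ligands and receptors, pathway genes past the threshold, and otherwise the 2 most abundant per list; some genes that this rule names are not reported here. No 2 libraries agreed within sampling noise over 66 pairs. Cbl, Dok6, Ncam1, Sorcs2, Spry1, Spry2 and the correlations between pairs were added after their values were seen.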

Additional observations from a re-analysis of the deposited data

Results flagged for a closer look

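A mouse far from the other 5 of its genotype was sought in 106 groups of 6, where chance gives about 5.3, and 9 were found, none among the 16 groups of the 8 genes. Mouse 887 (DKO) stood apart in its mitochondrial share, 5.60% against 2.52% in the nearest DKO mouse, in the summed receptor adaptors, 2304 against 2448 CPM, and in the summed sensory transcription factors, 644.5 against 522 CPM. Mouse 649 (Nf2) stood apart in the satellite glia markers, 5775 against 4203 CPM, and in the meningeal and perineurial markers, 326.9 against 455 CPM. Mouse 886 (DKO) had 1817 CPM of the meningeal and perineurial markers against 871 in the nearest DKO mouse. Mouse 914 (DKO) had 41250329 counts against 26353044, mouse 915 (DKO) 5.002 CPM of Gdnf against 2.21, and mouse 1048 (Nf2) 0.330 CPM of Artn, more than in any other Nf2 mouse.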

How the results depend on the processing

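Of the 8 genes, 0 passed in the comparison of genotypes, and 2 (Ntrk3 and Gfra3) passed with DESeq2, with limma voom and with the neuron marker covariate, 1 (Ntrk3) with at least 1 CPM in 6 mice, 1 (Gfra3) without mice 649 and 887, and 0 to 1 without 1 mouse. On simulated data DESeq2 made far more false calls than its threshold allows. All genes past the threshold numbered 172, and 845 with DESeq2, 521 with limma voom, 662, 80 and 92 with the neuron, skeletal muscle and central nervous system covariates, 57 in females, 2 in males, 9 in males without mouse 702, 314 without mice 649 and 887 and 81 to 217 without 1 mouse. Pathway genes past it numbered 1, and 2 with DESeq2 and with limma voom, 4 with the neuron covariate, 0 with the central nervous system covariate, in females, in males and in males without mouse 702, and 0 to 1 without 1 mouse. The counts of 0 for sex and for its interaction with genotype held in all alternatives run for them. Ntrk3, Gfra3, Gfra2 and Bdnf kept their direction in all 27 fits. The log2 fold change of Ret turned to 0.026 with the neuron covariate, 0.046 with the muscle covariate, 0.029 in males and 0.12 in males without mouse 702, and ranged from -0.10 to 0.019 without 1 mouse. Gfra1 turned to -0.012 in females and -0.016 without mice 649 and 887, and ranged from -0.060 to 0.14 without 1 mouse. Ngfr turned to -0.11 in females and Ntrk2 to 0.0030 in males without mouse 702. The causes of these changes were not tested. TMM-scaled CPM moved no mean of the 8 genes by more than 1 SD. No paired analysis was possible because the replicate numbers are mouse numbers that the genotypes do not share.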
